A study of Homo sapiens with 5 samples.

Results

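Chromatin at 10 genes of glucose uptake and glycolysis, SLC2A1, HK2, GPI, PFKP, ALDOA, TPI1, GAPDH, PGAM1, PKM and LDHA, was described from ChIP-seq summits of HCT116 cells, a human colorectal cancer line. The enolase gene ENO1 and other genes of the pathway, such as PGK1, were not included. A member was any summit lying within 10 kb of one of the 10 gene spans on hg19, in any of the 5 deposited lists. There were 151 such summits among 209263 in all. The gene names and spans were chosen without use of the measured values, although results of these data were already known.

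The cells had been transfected for 48 h with siRNA to ENO1-IT1, a transcript without coding function that is named after an intron of ENO1, or with control siRNA. Chromatin of each condition was precipitated with an antibody to H3K27ac (histone H3 acetylated at lysine 27, found at active promoters and enhancers) or to KAT7 (HBO1, a histone acetyltransferase of the MYST family). The fifth library was input DNA without antibody, whose siRNA is not labelled. The study asked whether histone acetylation across the genome depended on ENO1-IT1. Each group was 1 library, so no difference between conditions could be tested against replicate error, and each describes these libraries only. The lists hold no transcript levels, so neither the knockdown nor the identity of the cell line was checked, and the number of siRNA sequences used is not stated in the labels. Peak names in the lists start alike in both conditions, and the conditions rest on the sample titles alone.

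Glycolysis splits glucose into pyruvate in the cytosol. SLC2A1 (GLUT1) carries glucose across the plasma membrane, HK2 phosphorylates it, GPI and PFKP shape the hexose phosphates, ALDOA cuts the sugar chain, and TPI1, GAPDH, PGAM1 and PKM carry the products to pyruvate. LDHA reduces pyruvate to lactate. Many tumours, colorectal ones included, take up much glucose and release lactate even where oxygen is present, and most of these genes are known targets of the transcription factors HIF1 and MYC.

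A score is given with each summit. It is the authors' -log10 p or q value, a measure of how unlikely the local pile of reads is, and it grows with sequencing depth. Scores therefore rank summits within 1 list, and scores of the 2 conditions that stand side by side are not on a common scale. Distances are given from the 5′ edge of each gene span, with positive values running into the gene. The spans were given to the nearest kb, and the strand came from RefSeq on GRCh38.p14, and an edge need not be the start of transcription. The span was longer than the RefSeq gene at ALDOA (18.0 against 6.14 kb) and HK2 (62.0 against 59.2 kb) and shorter at GPI (39.0 against 42.7 kb), while at the other genes the lengths differed by less than 2 kb. Distances from an edge, and counts near one, describe the spans used and are least informative at ALDOA, GPI and HK2.

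H3K27ac was listed at all 10 genes in both conditions, whereas KAT7 was listed at 4 genes after ENO1-IT1 siRNA and at 8 after control siRNA. The windows, 490 kb together, held 64 H3K27ac summits after ENO1-IT1 siRNA and 60 after control siRNA, out of 31839 and 29429 in the lists. They held 4 KAT7 summits after ENO1-IT1 siRNA and 22 after control siRNA, out of 24611 and 122439. The input list gave 1 summit, of 945. The H3K27ac density was 131 summits per Mb of window after ENO1-IT1 siRNA and 122 after control siRNA, against 10.6 and 9.78 per Mb over the whole lists. In the next 90 kb on each side of the windows it was 30.0 per Mb after ENO1-IT1 siRNA and 40.0 after control siRNA. KAT7 had 8.16 summits per Mb of window after ENO1-IT1 siRNA and 44.9 after control siRNA, against 8.18 and 40.7 over the whole lists and 12.8 and 52.2 in the flanking 90 kb. The KAT7 densities of the windows were thus close to those of the whole lists. They were lower than those of the flanks, but these values rest on few summits. The windows held 4 and 22, and the flanks 23 after ENO1-IT1 siRNA and 94 after control siRNA. The difference from the flanks was not tested. SLC2A1 alone gave 27 and 20 of the H3K27ac summits, and without it the H3K27ac densities were 84.9 per Mb after ENO1-IT1 siRNA and 91.7 after control siRNA.

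The 2 genes at which KAT7 lay on H3K27ac, near the edge where transcription starts, were PKM after ENO1-IT1 siRNA and LDHA after control siRNA. Their promoter sequences are shown because both marks were listed together nowhere else in the windows. They are the 250 bases before each start of transcription that RefSeq gives on GRCh38.p14, 5′ to 3′ on the gene's strand, for PKM at chr15:72231191-72231440 on the minus strand and for LDHA at chr11:18394313-18394562 and chr11:18396101-18396350 on the plus strand. Capitals mark ACGTG, a form of the core of the hypoxia response element, and the GC box, GGGCGG, on either strand. Other forms of that core were not searched, so a sequence without ACGTG may still hold one. Summits are on hg19 and were not carried over to this build, so no summit is placed on these letters.
PKM: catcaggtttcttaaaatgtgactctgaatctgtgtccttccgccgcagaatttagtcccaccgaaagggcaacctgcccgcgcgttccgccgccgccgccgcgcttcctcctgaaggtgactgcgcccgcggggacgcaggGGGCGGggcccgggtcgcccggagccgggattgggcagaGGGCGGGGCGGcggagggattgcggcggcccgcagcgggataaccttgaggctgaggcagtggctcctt
LDHA, upstream start: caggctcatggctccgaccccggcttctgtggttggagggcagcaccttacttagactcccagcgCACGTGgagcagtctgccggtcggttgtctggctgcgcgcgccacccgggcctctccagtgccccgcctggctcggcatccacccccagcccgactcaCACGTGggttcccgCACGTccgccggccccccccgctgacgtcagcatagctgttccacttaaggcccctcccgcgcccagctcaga
LDHA, downstream start: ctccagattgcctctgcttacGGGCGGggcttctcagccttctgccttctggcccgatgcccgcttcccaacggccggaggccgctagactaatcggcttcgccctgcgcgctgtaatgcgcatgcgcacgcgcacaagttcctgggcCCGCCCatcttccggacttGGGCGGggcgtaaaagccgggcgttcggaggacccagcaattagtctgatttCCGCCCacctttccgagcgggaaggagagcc

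The PKM sequence held 3 matches to the GC box, a pair of them overlapping in a run of 11 bases, and no ACGTG. The upstream LDHA sequence held 3 stretches with ACGTG, 2 of them within the palindrome CACGTG (the E-box bound by MYC and its relatives), and no GC box. The downstream LDHA sequence held 4 GC boxes and no ACGTG. Over all 10 genes RefSeq gave 18 such windows. ACGTG, counted on both strands and including its copies inside CACGTG, was in 10 of the 18 and in at least 1 window of 7 genes, namely HK2, GPI, PFKP, ALDOA, TPI1, GAPDH and LDHA. It was in 18.5% of the 35116 windows of the same length in the table. CACGTG was in 4 of the 18, at HK2, ALDOA, GAPDH and LDHA, against 6.34% of all. The GC box was in 12 of the 18, at all genes except GPI, against 42.6% of all. TATAAA was in 1, at SLC2A1, against 10.7%. Several windows of 1 gene overlap or lie close together, and a match says nothing of whether a factor was bound.

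**Figure D1:**
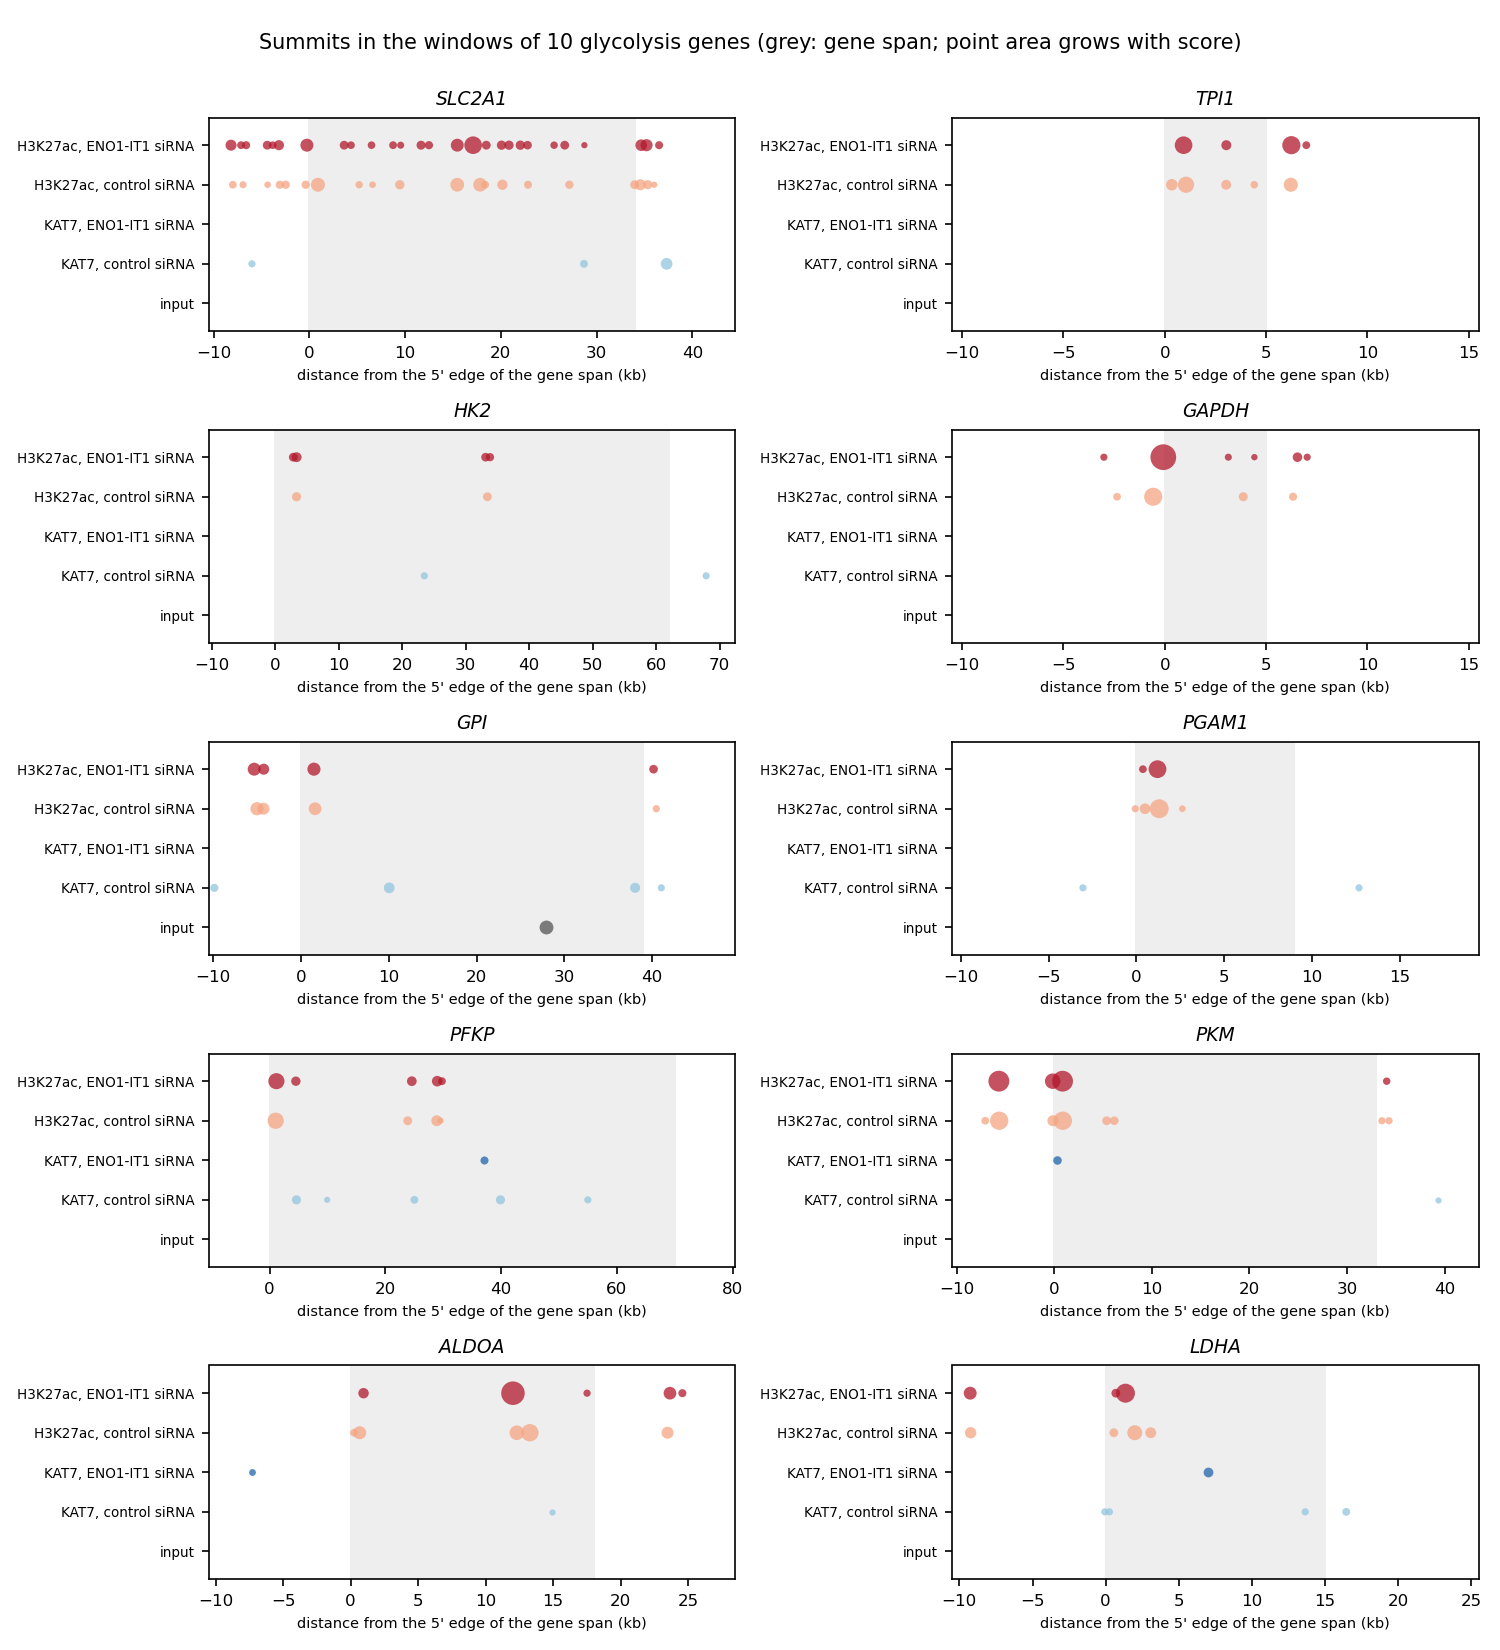
Each panel is 1 gene window and shows summits by their distance from the 5′ edge of the gene span (kb), with 1 row per list and the area of each point growing with its score. H3K27ac is present at every gene in both conditions and crowded along SLC2A1 (27 and 20 summits). The KAT7 rows hold 4 and 22 summits and are empty at TPI1 and GAPDH, whose windows are the shortest (25.0 kb each).

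SLC2A1, the glucose transporter, had by far the most H3K27ac summits. Its 54.0 kb window on chromosome 1 held 27 after ENO1-IT1 siRNA, 17 of them inside the gene span, and 20 after control siRNA, 11 of them inside. Scores ran from 1.38 to 29.8 with a median of 5.42 after ENO1-IT1 siRNA and from 1.49 to 17.7 with a median of 4.48 after control siRNA. Neighbouring summits were a median of 1344 bp apart after ENO1-IT1 siRNA and 1795 bp after control siRNA, so that acetylation was listed along the whole gene and not at its start alone. For comparison, a window of the same length centred on each summit of the list held a median of 3 summits in either condition. As many as at SLC2A1 were found around 0.192% of the summits after ENO1-IT1 siRNA and around 1.07% after control siRNA.

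The highest SLC2A1 score after ENO1-IT1 siRNA was 29.8, at 43407897, 17.1 kb inside the gene. The nearest control summit lay 731 bp away, beyond the 500 bp that counted as the same position, at 43407166 with a score of 17.0. A second intragenic summit agreed to 4 bp, at 43409553 after ENO1-IT1 siRNA (score 14.7) and at 43409557 after control siRNA (score 17.1). At the 5′ edge the ENO1-IT1 siRNA list had 43425257 with a score of 14.9, and the control list had 43424101 with 17.7 and 43425385 with 4.48. The 5′ edge and the body of the gene thus both carried H3K27ac in both conditions. The highest score was in the body after ENO1-IT1 siRNA. After control siRNA the score of 17.7 at the 5′ edge was close to 17.1 and 17.0 in the body. A change between conditions was not tested. KAT7 was not listed in this window after ENO1-IT1 siRNA. The control KAT7 list had 3 summits there, with scores of 11.7, 3.76 and 2.68. The strongest, at 43387687 and 37.3 kb from the 5′ edge, lay beyond the 3′ edge and was the only KAT7 summit of any window that scored at least 10.

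HK2, which traps glucose in the cell as glucose 6-phosphate, had the lowest top score for H3K27ac of the 10 genes. On chromosome 2 the ENO1-IT1 siRNA list had 4 summits with scores of 4.40 to 7.50, and the control list had 2, with 6.15 and 5.45. The highest were 15 bp apart, at 75062337 after ENO1-IT1 siRNA and at 75062322 after control siRNA, 3.34 and 3.32 kb into the span. A score of 7.50 exceeded 45.9% of the ENO1-IT1 siRNA list, and 6.15 exceeded 42.5% of the control list. HK2 was the only gene whose best summit was below the median of its list in both conditions. The medians of the whole lists were 8.02 after ENO1-IT1 siRNA and 7.14 after control siRNA. KAT7 was not listed after ENO1-IT1 siRNA, and the control list had 2 summits (score 2.68 each), the nearer 9945 bp from H3K27ac.

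GPI, which turns glucose 6-phosphate into fructose 6-phosphate, had the same 4 H3K27ac positions in both conditions. The summit inside the 5′ edge, on chromosome 19, was at 34856476 after ENO1-IT1 siRNA (score 15.3) and at 34856608 after control siRNA (score 14.3). Before the span lay a pair, at 34849668 and 34850755 after ENO1-IT1 siRNA (scores 14.9 and 10.0) and at 34849992 and 34850723 after control siRNA (scores 15.6 and 12.3). GARRE1 is the next protein-coding gene on that side in RefSeq, and RefSeq gives GPI a length of 42.7 kb, longer than the 39.0 kb span used here. The fourth position lay just beyond the 3′ edge, on the side of PDCD2L, at 34895171 after ENO1-IT1 siRNA (score 5.20) and at 34895486 after control siRNA (score 2.78).

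The GPI window held no KAT7 summit after ENO1-IT1 siRNA and 4 after control siRNA, with scores of 9.42, 7.87, 4.28 and 2.68. The closest of these to H3K27ac was 570 bp away, just outside the distance used. The single input summit of the windows was here too, at 34882898 with a score of 17.4, 27.9 kb into the span. It was 12273 and 12588 bp from H3K27ac after ENO1-IT1 siRNA and control siRNA, and 36498 and 10171 bp from KAT7. No immunoprecipitated summit of any window lay within 1000 bp of an input summit.

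PFKP, a phosphofructokinase that commits fructose 6-phosphate to the pathway, had 1 strong H3K27ac summit near its 5′ edge and weaker ones inside the gene. On chromosome 10 the strong summit was at 3110176 after ENO1-IT1 siRNA (score 24.5) and at 3110053 after control siRNA (score 25.0), 123 bp apart. Inside the gene, 29.0 kb from the edge, a summit at 3137964 scored 9.06 after ENO1-IT1 siRNA, and its counterpart at 3137881 scored 9.68 after control siRNA. PFKP had 1 KAT7 summit after ENO1-IT1 siRNA, at 3146107 with a score of 4.09, and 5 after control siRNA with scores of 1.31 to 6.02. The nearest KAT7 positions of the conditions were 2785 bp apart.

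ALDOA, the aldolase of muscle and of many tumours, had its strongest H3K27ac well inside the span. On chromosome 16 the ENO1-IT1 siRNA list had 1 summit there, at 30076023 with a score of 55.2, which ranked 443 in its list. The control list had 2, at 30076309 (score 19.6) and at 30077277 (score 28.9). The first lay 286 bp from the ENO1-IT1 siRNA summit, and the second 1254 bp, so that the strongest control position had no counterpart within 500 bp. RefSeq gives ALDOA a length of 6.14 kb, against 18.0 kb for the span, so the edge used here need not be the start of the RefSeq gene. Whether these summits lie inside that gene was not determined. Near the edge of the span itself a weaker summit was at 30064957 after ENO1-IT1 siRNA (score 8.74) and at 30064674 after control siRNA (score 15.2). Beyond the 3′ edge, toward PPP4C, a summit was at 30087651 after ENO1-IT1 siRNA (score 14.2) and at 30087473 after control siRNA (score 12.4). KAT7 was listed once in each condition, at 30056672 (score 2.16) after ENO1-IT1 siRNA and at 30078892 (score 1.31) after control siRNA, neither of them on H3K27ac.

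TPI1 and GAPDH, which interconvert the triose phosphates and oxidise glyceraldehyde 3-phosphate, had strong H3K27ac and no KAT7 summit in either condition. Their windows, 25.0 kb each, were the shortest of the 10. The whole KAT7 lists held 8.18 summits per Mb after ENO1-IT1 siRNA and 40.7 after control siRNA. At that length and those densities, a window without KAT7 does not set either gene apart. Both lie on chromosome 12. TPI1 had a summit at its 5′ edge, at 6976931 after ENO1-IT1 siRNA (score 29.8) and at 6977052 after control siRNA (score 24.7). Just beyond its 3′ edge was another, at 6982253 after ENO1-IT1 siRNA (score 31.9) and at 6982226 after control siRNA (score 18.1). Another, inside the gene, agreed to 6 bp, with scores of 7.78 after ENO1-IT1 siRNA and 7.57 after control siRNA.

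GAPDH had the highest H3K27ac score of the 10 genes after ENO1-IT1 siRNA, 66.6 at 6642931, which ranked 267 of 31839. Its highest control score was 31.8 at 6642431, which ranked 965 of 29429. These summits, 69 and 569 bp before the 5′ edge, were exactly 500 bp apart, so that counting them as the same position rests on the distance chosen. The other GAPDH summits, on both sides of the small gene, scored at most 6.87 after ENO1-IT1 siRNA and 5.85 after control siRNA. The nearest KAT7 summit to any H3K27ac summit of this window was 8676 bp away after ENO1-IT1 siRNA and 9646 bp after control siRNA.

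PGAM1, which moves the phosphate of phosphoglycerate, had a single strong H3K27ac summit 1.20 to 1.30 kb into its span. On chromosome 10 it was at 99186204 after ENO1-IT1 siRNA (score 30.4) and at 99186303 after control siRNA (score 34.7), the highest control score of the 10 genes. Weaker summits beside it numbered 1 after ENO1-IT1 siRNA (score 3.53) and 3 after control siRNA (scores 1.88 to 9.0). KAT7 was absent from the list after ENO1-IT1 siRNA and had 2 summits after control siRNA, each with a score of 2.68 and the nearer 2981 bp from H3K27ac.

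PKM makes pyruvate and ATP, and its M2 isoform is the usual one in tumours. Its 3 highest-scored H3K27ac summits were at the same positions in both conditions. On chromosome 15, with the gene on the minus strand, they were 72523165, 72524181 and 72529699 after ENO1-IT1 siRNA, with scores of 42.5, 22.5 and 42.9. After control siRNA they were 72523144, 72524157 and 72529666, with scores of 32.7, 10.1 and 32.5. The positions of the conditions differed by 21 to 33 bp. The first pair lay at the 5′ edge, and the remaining one was 5.70 kb before it after ENO1-IT1 siRNA and 5.67 kb after control siRNA, on the side of PARP6. The window held 4 H3K27ac summits after ENO1-IT1 siRNA and 8 after control siRNA. Weak control summits at 72517865, 72518644 and 72531095 (scores 5.03, 5.45 and 3.54) had no counterpart within 500 bp. Between the pair at the edge, the ENO1-IT1 siRNA list had a KAT7 summit at 72523696 with a score of 4.98. It was 485 bp from one H3K27ac summit and 531 bp from the other, and its score exceeded 17.1% of its list. The control KAT7 list had nothing there. Its nearest summit to that position was 39048 bp away, at 72484648 beyond the 3′ edge, with a score of 1.31.

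LDHA, the lactate-forming enzyme at the end of the list, also had both marks at its 5′ edge, but in the control. On chromosome 11 the control KAT7 list had summits at 18414945 and 18415258, each with a score of 2.68, a value shared by 42.7% of that list. The second was 301 bp from a control H3K27ac summit at 18415559 (score 5.45), and the first was 614 bp from it. After ENO1-IT1 siRNA the only KAT7 summit of the window was at 18421998, 7.0 kb into the gene, with a score of 7.29, and it lay 6644 bp from the nearest control KAT7 summit and 5643 bp from H3K27ac.

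The main H3K27ac summit of LDHA was at 18416355 after ENO1-IT1 siRNA (score 35.0) and at 18416992 after control siRNA (score 20.7). These were 637 bp apart and so counted as listed in 1 condition each. The weaker summit before them agreed to 138 bp, at 18415697 after ENO1-IT1 siRNA (score 5.36) and at 18415559 after control siRNA. Far upstream, 9.26 and 9.23 kb before the edge, a summit was at 18405740 after ENO1-IT1 siRNA (score 14.7) and at 18405773 after control siRNA (score 10.8).

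The gene windows stood in a partly similar order within each H3K27ac list. By their best score after ENO1-IT1 siRNA they ran GAPDH, ALDOA, PKM, LDHA, TPI1, PGAM1, SLC2A1, PFKP, GPI and HK2. By the control scores they ran PGAM1, PKM, GAPDH, ALDOA, PFKP, TPI1, LDHA, SLC2A1, GPI and HK2. GPI and HK2 came last in both. At SLC2A1, GPI, TPI1 and PKM the best summits of the conditions were different sites. At ALDOA and LDHA they also lay more than 500 bp apart. Some best summits lay outside the gene span. These were at TPI1 and PKM after ENO1-IT1 siRNA, at GPI after control siRNA, and just before the edge of GAPDH in both. The order is thus one of windows, and it need not be that of the genes' own acetylation. The Spearman rho between the best scores of the conditions was 0.67 over the 10 genes, which share 2 libraries and have no replicate, so neighbours in either order cannot be told apart. Of the ENO1-IT1 siRNA summits in the windows 17.2% scored at least 20, against 17.3% of the whole list. Of the control summits 13.3% did, against 10.1%. The median score was 6.05 in the windows and 8.02 in the list after ENO1-IT1 siRNA, and 6.0 and 7.14 after control siRNA.

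**Figure D2:**
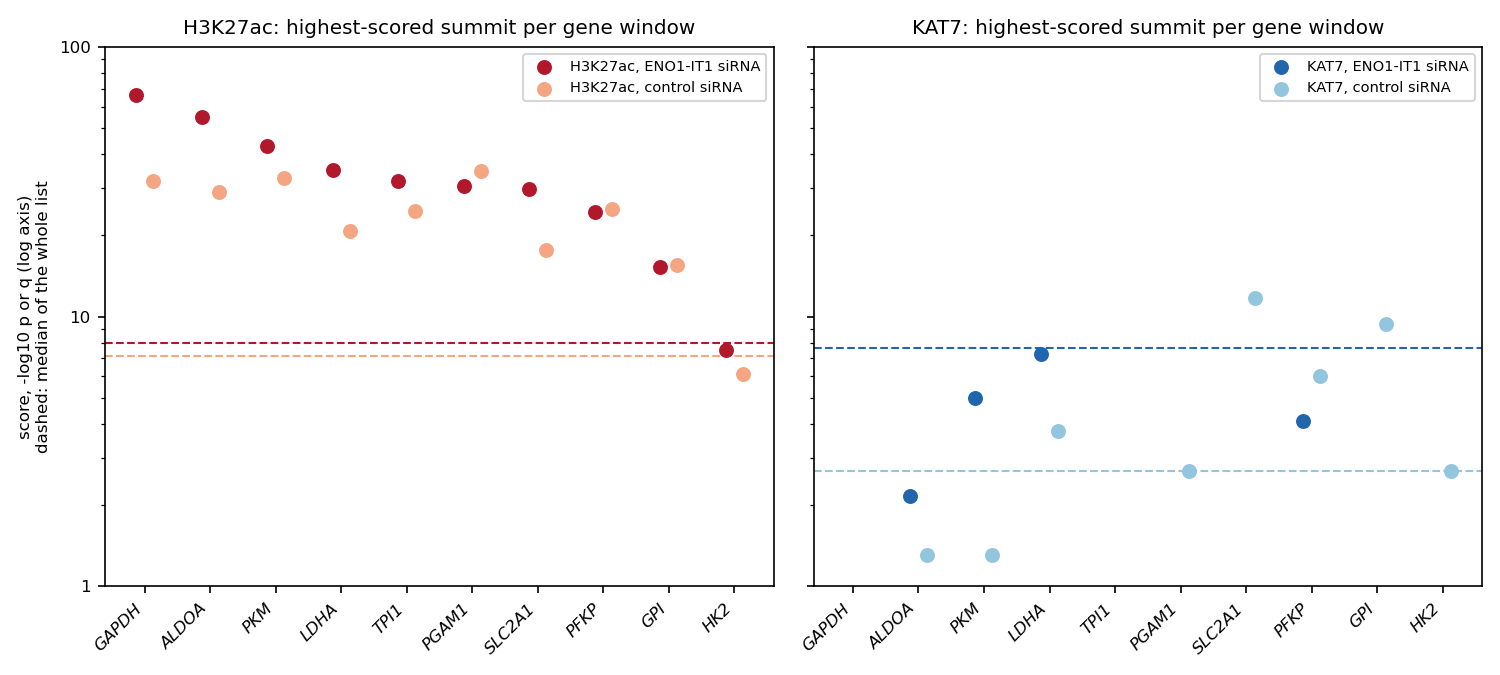
The highest-scored summit of each gene window is plotted by gene, on a logarithmic score axis (-log10 p or q), for H3K27ac (left) and KAT7 (right), with dashed lines at the median score of each whole list. For H3K27ac, 9 genes lie above the medians in both conditions and HK2 lies below, at 7.50 and 6.15. For KAT7 the 4 genes listed after ENO1-IT1 siRNA lie below that list's median of 7.67, and the 8 control genes run from 1.31 to 11.7.

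H3K27ac positions at the glycolysis genes were found again in the other condition about as often as over the genome. Of the 64 summits after ENO1-IT1 siRNA, 41 had a control summit within 500 bp, or 64.1% (exact Clopper-Pearson 95% interval 51.1 to 75.7%). Over the whole list 64.3% did. Of the 60 control summits, 41 had a counterpart after ENO1-IT1 siRNA, or 68.3% (55.0 to 79.7%), against 71.9% of the whole list. Intervals cover counting error only, and neighbouring summits of 1 gene are not independent. Each of the 10 genes had at least 1 shared position. Of the summits scoring at least 20, 9 of 11 after ENO1-IT1 siRNA had a counterpart within 500 bp, or 81.8% (48.2 to 97.7%), against 87.1% of such summits in the whole list. After control siRNA 6 of 8 did, or 75% (34.9 to 96.8%), against 80.1%. The 4 without one were the intragenic SLC2A1 summit and the main LDHA summit after ENO1-IT1 siRNA, and the ALDOA summit 13.3 kb into its span and the main LDHA summit after control siRNA. The other condition had a summit 637 to 1254 bp from each of them. The 1254 bp is the largest distance seen and was not set beforehand, and no whole-list share was computed at it.

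The numbers of H3K27ac summits in the windows followed the lengths of the lists when all scores were counted. The ratio of ENO1-IT1 siRNA to control siRNA was 1.07 in the windows and 1.08 in the lists. At a score of at least 10 it was 0.955 in the windows, from 21 and 22 summits, and 1.39 in the lists. At a score of at least 20 it was 1.38, from 11 and 8 summits, against 1.86. These counts are small, and scores of separate libraries are not on a common scale.

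No KAT7 position within 10 kb of these gene spans was listed in both conditions. None of the 4 summits after ENO1-IT1 siRNA had a control summit within 500 bp (exact interval 0 to 60.2%), against 32.2% of the whole list. None of the 22 control summits had a counterpart after ENO1-IT1 siRNA (0 to 15.4%), against 6.62%. With so few summits the whole-list shares lie inside both intervals. With all scores counted, the ratio of ENO1-IT1 siRNA to control KAT7 summits was 0.182 in the windows and 0.201 in the lists. Whether list length accounts for the smaller number at these genes was not tested, and the ratios differed more at higher scores. At a score of at least 3, 3 and 9 summits remained in the windows, a ratio of 0.333, against 0.676 in the lists. At a score of at least 10 the lists held 9199 after ENO1-IT1 siRNA and 3371 after control siRNA, and the windows 0 and 1.

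The 4 KAT7 summits after ENO1-IT1 siRNA all lay below the median of their list, with scores of 2.16 to 7.29 against a list median of 7.67. They exceeded 1.12% (ALDOA), 9.55% (PFKP), 17.1% (PKM) and 42.2% (LDHA) of that list. The control KAT7 summits scored 1.31 to 11.7 with a median of 2.68, the same as the list median. The highest of them, 11.7 at SLC2A1 and 9.42 and 7.87 at GPI, exceeded 97.6%, 96.0% and 94.0% of the control list, and the 2 at PFKP that scored 6.02 exceeded 89.2%. Of the 22 control summits, 10 had the score 2.68 and 3 had 1.31, values that 42.7% and 21.5% of the control list share. Within 2 kb of a 5′ edge there was 1 KAT7 summit after ENO1-IT1 siRNA, at PKM, and there were 2 after control siRNA, both at LDHA. H3K27ac had 12 summits that close after ENO1-IT1 siRNA and 16 after control siRNA.

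H3K27ac at the glycolysis genes lay mostly apart from KAT7. Of the 64 H3K27ac summits after ENO1-IT1 siRNA, 1 had a KAT7 summit within 500 bp, or 1.56% (0.0396 to 8.40%), against 14.3% of the whole list. Of the 60 after control siRNA, 1 did, or 1.67% (0.0422 to 8.94%), against 14.8%. Both whole-list shares lie above these intervals, but the intervals treat neighbouring summits of 1 gene as independent. SLC2A1 alone gave 27 and 20 of these summits, none of them within 500 bp of KAT7. Without SLC2A1, whose close summits weigh heavily, the shares were 2.70% (0.0684 to 14.2%) of 37 and 2.50% (0.0633 to 13.2%) of 40. The upper bound after ENO1-IT1 siRNA, 14.2%, then nearly reached the whole-list 14.3%. These shares were not computed at other matching distances. Among summits scoring at least 20, 1 of 11 had KAT7 after ENO1-IT1 siRNA, or 9.09% (0.230 to 41.3%), against 19.2% of such summits in the list. After control siRNA it was 0 of 8 (0 to 36.9%), against 27%. At these higher scores the intervals take in the whole-list shares, so a difference was not detectable with this number of summits.

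The best H3K27ac summit of a gene was never within 500 bp of KAT7. The distance to the nearest KAT7 summit of the same condition ran from 5643 to 132258 bp after ENO1-IT1 siRNA, with a median of 26900 bp. After control siRNA, whose KAT7 list is 4.97 times as long, it ran from 1615 to 38496 bp with a median of 5881 bp. Over all H3K27ac summits scoring at least 20 the median distance was 24016 bp after ENO1-IT1 siRNA and 5035 bp after control siRNA.

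Seen from KAT7, 1 of the 4 summits after ENO1-IT1 siRNA lay on H3K27ac, the one at PKM, or 25.0% (0.631 to 80.6%), against 19.0% of the whole list. Of the 22 after control siRNA 1 did, at LDHA, or 4.55% (0.115 to 22.8%), against 3.67%. The shares of the whole lists lie inside both intervals.

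**Figure D3:**
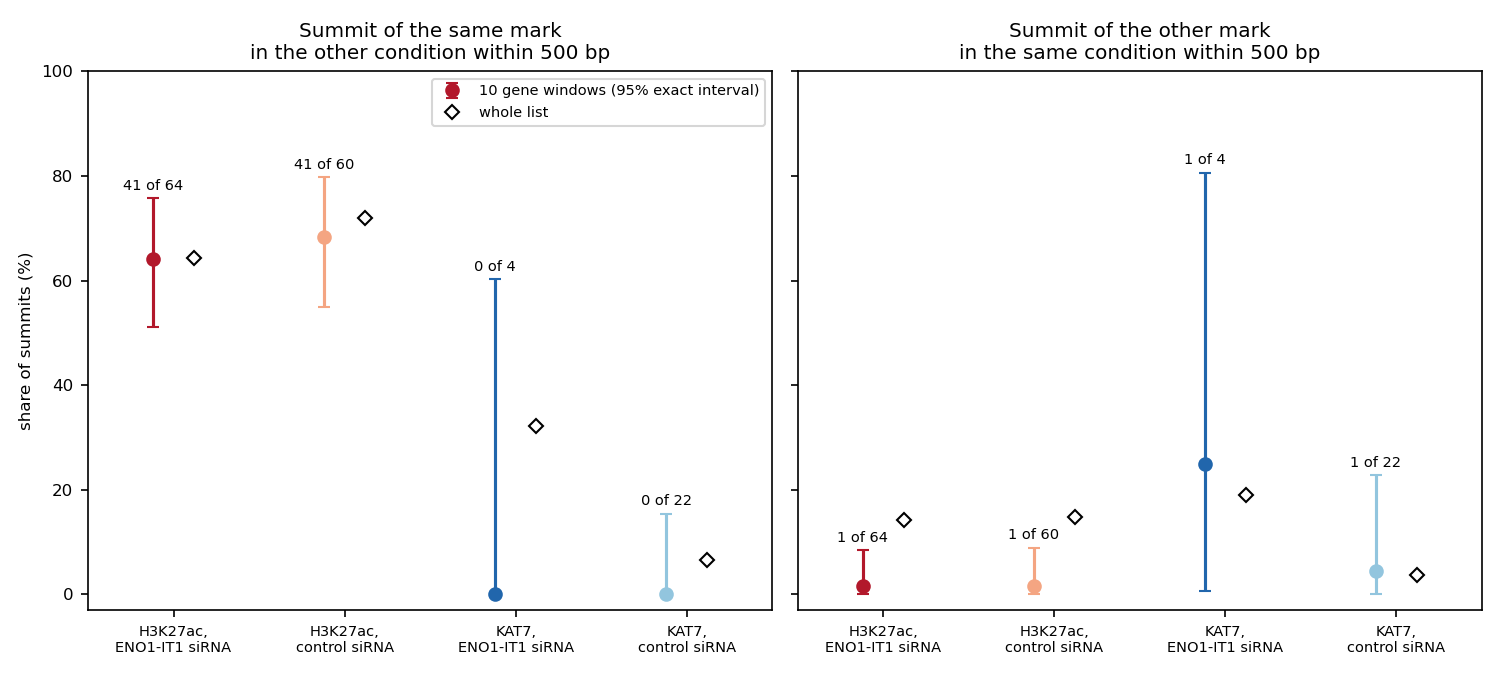
Shares of summits (%) with a counterpart within 500 bp are shown for the 10 gene windows (filled points with exact 95% intervals and counts) and for the whole lists (open diamonds), for the same mark in the other condition (left) and for the other mark in the same condition (right). H3K27ac is kept in the windows about as in the lists (64.1 and 68.3% against 64.3 and 71.9%), and it meets KAT7 at 1 of 64 and 1 of 60 summits, below the 14.3 and 14.8% of the lists.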

How the data were processed

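Per the submitters' processing notes, Bowtie (alignment, hg19) and MACS2 (peak calling) were used, and their versions, options and control are not stated in the sources used. Peak names are tagged as duplicate-removed. The authors deposited 1 list of 1 bp summits per sample, each with a -log10 p or q value, and which of p and q was not stated. No read counts were given, so depth is unknown.

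Gene spans were extended by 10 kb. The members and lists were chosen with earlier results of these data known. All 10 genes are named, with the highest-scored summit of each list, every summit scoring at least 20 found in 1 condition only, every KAT7 summit on H3K27ac and any input summit. Others are named to show a gene's pattern, chosen after their values were seen. Summits of different lists were matched within 500 bp in SciPy 1.17.1, pandas 2.3.3 and numpy 2.4.6 under Python 3.11.15, with figures drawn in matplotlib 3.10.9. On simulated lists of 29429 and 24611 summits with 70.0% and 30.0% kept, the matching found 70.1% and 30.5%. Simulated positions were spread evenly, unlike the crowded real summits, so this checks the code and not the choice of 500 bp. Alternatives were distances of 250 and 1000 bp, spans alone or with 20 kb, a score of at least 10, lists of equal length and removal of summits within 1000 bp of input. Leaving out SLC2A1 was added after seeing the data. Sequences of all 10 genes were matched by symbol in RefSeq tables of GRCh38.p14. The other genes of the pathway were not analysed here, since no hg19 annotation was used.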

Additional observations from a re-analysis of the deposited data

How the results depend on the processing

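Of 86 alternative values for 12 counts and shares, 61 stayed within 1.5 times the reported count or inside the interval of the reported share. The 61 are not a measure of robustness. No summit of the windows lay near input, so that removal could not change a count. KAT7 shares from 4 summits had intervals of 0 to 60.2% and 0.631 to 80.6%, inside which most values would fall. The share of H3K27ac summits found in both conditions depended on the matching distance. At 250 bp it was 50.0% after ENO1-IT1 siRNA and 53.3% after control siRNA, and at 1000 bp 87.5% and 86.7%. At a score of at least 10 the ENO1-IT1 siRNA share was 76.2%. H3K27ac summits numbered 39 and 36 in the gene spans alone, 21 and 22 at a score of at least 10, and 37 after ENO1-IT1 siRNA without SLC2A1. KAT7 summits after control siRNA numbered 12 in the spans alone, 35 with 20 kb on each side, 1 at a score of at least 10 and 6 with lists of equal length. After ENO1-IT1 siRNA 0 scored at least 10. With 20 kb on each side, a KAT7 position was listed in both conditions. The shares were then 16.7% of 6 summits after ENO1-IT1 siRNA and 2.86% of 35 after control siRNA. KAT7 on H3K27ac rested on the distance and on scores under 10. At 250 bp the shares were 0% and 0% and the genes 0 and 0. At a score of at least 10 the genes were 0 and 0 and the control share 0%. With lists of equal length the control share was 0% and the genes 0. At 1000 bp 3 genes had it after control siRNA. Shares that had no summits left at a score of at least 10 have no value. No result kept or lost a test, since none could be made with 1 library per group. No paired analysis was possible because each group held 1 library. Library depth is unknown, and it sets how many weak summits a list holds.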
